A study of Mus musculus with 14 samples.

Results

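Gata1+ progenitors were studied here among hematopoietic stem and progenitor cells (HSPC), the immature cells of the bone marrow from which blood cells form. A cell was counted as a Gata1+ progenitor when it held at least 1 unique molecular identifier (UMI, a tag that counts captured RNA molecules) of Gata1 and fewer than 10 UMIs of Elane per 10000 UMIs. The cells were therefore chosen by their measured Gata1 and Elane UMIs, and the rule took 1580 of 14842 HSPC. They came from 2 wild-type (WT) mice, with 544 of 3422 and 265 of 2210 cells, and from 2 PyMT mice, with 335 of 3602 and 436 of 5608 cells. PyMT mice carry the polyoma middle T oncogene, which drives mammary tumours. The question was whether the platelet and erythroid gene programme within these progenitors differed between PyMT and WT mice, in a study of how breast cancer acts on the marrow at a distance. The cells were sorted from bone marrow and captured in droplets for 3' RNA sequencing. The labels used here give neither the sort gates nor the promoter of the transgene, nor the strain, age or sex of the mice. Although each of the 4 libraries is titled with PyMT, 2 are WT by their genotype label and by the deposited metadata, and the groups follow genotype.

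GATA1 is a zinc-finger transcription factor that megakaryocyte and erythroid precursors need in order to mature, and it is also made in mast cells, basophils and eosinophils. Megakaryocytes shed platelets, which carry adhesion receptors such as the integrin encoded by Itga2b and the glycoprotein complex of Gp1ba, Gp1bb, Gp9 and Gp5, and granules loaded with the chemokine encoded by Pf4. Erythroid cells switch on Klf1, the erythropoietin receptor, carbonic anhydrases, heme enzymes and lastly globins. Elane encodes neutrophil elastase, an early granule protein of the granulocyte-monocyte lineage.

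The Gata1+ progenitors held 2222155 to 4267109 UMIs per mouse. Their median depth was 7340.5 and 8463 UMIs per cell in the WT mice and 6687 and 4854.5 in the PyMT mice, so the second PyMT library was the shallowest. The Elane limit removed 7 and 1 cells with Gata1 in the WT mice and 12 and 17 in the PyMT mice. Of the 14748 distinct cell barcodes, 93 occurred in more than 1 library, and 21 Gata1+ progenitors held such a barcode. At a matched depth, a Gata1 UMI was seldom found where it should be absent, but the rule was applied at full depth. When every cell was thinned to 2000 UMIs, Gata1 was seen in 24 of 3421 cells with at least 2 Dntt UMIs, a lymphoid priming gene (0.702%, median depth 6813 UMIs before thinning). It was seen in 720 of all 14624 HSPC with that depth (4.92%, median depth 5823). By the rule at full depth, 3336 of the 3421 Dntt-positive cells lay outside the Gata1+ progenitors, and the remainder were counted among them. Of the 1580 Gata1+ progenitors, 919 held a single Gata1 UMI.

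All 5 markers other than Gata1 were higher in Gata1+ progenitors than in the remaining HSPC of the same mouse, in 4 of 4 mice. This comparison describes the cells that the rule chose and was not tested. Itga2b, the platelet integrin chain, stood at 524 and 468 CPM (UMIs scaled to a common library total) in Gata1+ progenitors of the WT mice against 90.9 and 81.7 CPM in the other HSPC. Gp5, a glycoprotein of the von Willebrand factor receptor complex, stood at 186 and 191 CPM against 23.4 and 20.8 CPM in the WT mice, and at 128 and 168 CPM against 8.49 and 16.4 CPM in the PyMT mice. Klf1, the erythroid zinc-finger factor, stood at 63.7, 75.8, 67.7 and 57.6 CPM in WT 1, WT 2, PyMT 1 and PyMT 2, against 3.40 to 6.18 CPM in the other HSPC. The platelet and the erythroid markers both separated the cell sets in each mouse, and none of these 5 markers went against the name. Mast cell, basophil and eosinophil genes, which the markers do not cover, were higher as well. Of 8 such genes with at least 20 UMIs in both cell sets together, 4 were higher in all 4 mice and none lower (median log2 ratio 1.52).

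Of 10652 genes with at least 20 UMIs in both cell sets together, 136 were at least 2-fold higher in Gata1+ progenitors than in other HSPC in every mouse and 185 at least 2-fold lower. Among the 7781 genes with at least 20 UMIs in the Gata1+ progenitors of every mouse, the 14 genes besides Gata1 with the highest ratio in their lowest mouse were Car1, Ackr1, Fcer1a, Klf1, Ces2g, Aqp1, Pf4, Mfsd2b, Smim1, Mt2, F2rl2, Samd14, Gp5 and Epor. Car1, a carbonic anhydrase of early erythroid cells, led with log2 ratios of 4.98 to 6.26. Epor, the erythropoietin receptor, reached at least 2.98, and F2rl2, a platelet thrombin receptor, 3.09 to 3.83. Fcer1a, the alpha chain of the IgE receptor of mast cells and basophils, had log2 ratios of 3.63 to 4.02. Of the gene lists, 22 of 24 platelet and megakaryocyte genes and 12 of 14 erythroid genes with enough UMIs were higher in Gata1+ progenitors in all 4 mice. For scale, 2217 of the 7781 genes above were higher in all 4 mice. Those genes had at least 20 UMIs in Gata1+ progenitors alone, whereas the list genes had them in both cell sets together, so the scale is rough. Lymphoid genes were lower for 11 of 12, and granulocyte-monocyte genes other than Elane for 12 of 16. The share of all genes lower in all 4 mice was not taken, so these counts have no such scale. Stem cell genes went both ways: of 21, 7 were higher and 7 lower in all 4 mice, with a median log2 ratio of -0.03. Of 15 transcription factors besides Gata1, 8 were higher and 3 lower in all 4 mice. Of 4 mature red cell markers, 3 were higher in Gata1+ progenitors in all 4 mice and 1 lower, with a median log2 ratio of 0.66. The mature red cell list summed to 81.0 to 113 CPM in Gata1+ progenitors and 67.5 to 115 CPM in other HSPC.

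**Figure D1:**
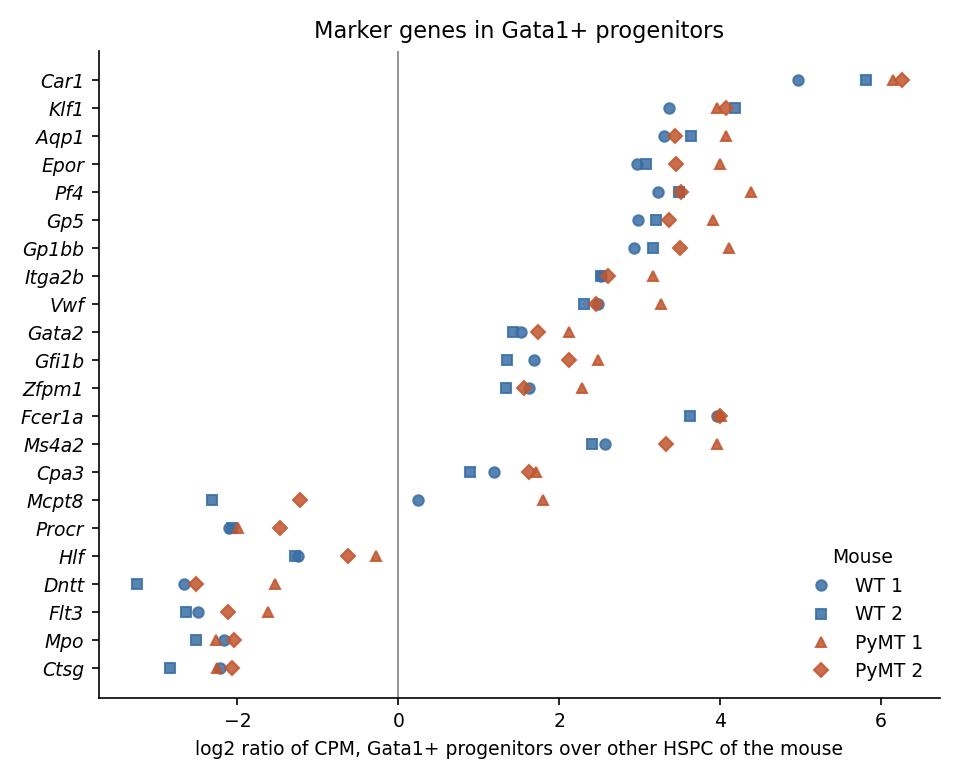
The log2 ratio of CPM in Gata1+ progenitors to CPM in the other HSPC of the same mouse (x axis) is plotted for 22 marker genes (y axis), 1 point per mouse, blue for WT and orange for PyMT. The platelet and erythroid genes plotted and the transcription factors Gata2, Gfi1b and Zfpm1 lie to the right of 0 in each mouse. The few stem cell, lymphoid and granulocyte genes plotted lie to the left, and Mcpt8 on both sides. In the whole stem cell list, 7 of 21 genes were higher and 7 lower in all 4 mice.

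Gata1+ progenitors were not alike. With each cell thinned to 2000 UMIs, 27.9% of 1572 showed a platelet glycoprotein gene (Gp5, Gp1bb or Gp9) and neither an erythroid gene (Klf1, Car1, Epor or Aqp1) nor a mast cell or basophil gene (Ms4a2, Fcer1a, Mcpt8 or Prss34). Erythroid genes alone were seen in 8.72%, platelet and erythroid genes together in 14%, and mast cell or basophil genes alone in 6.11%. A further 8.59% held mast cell or basophil genes with at least 1 of the other sets, and 34.7% showed none of the 3 sets at this depth. In Dntt-positive cells outside the rule, at a median depth of 6757.5 UMIs against 6508 in Gata1+ progenitors, a platelet gene was seen in 3.15%, an erythroid gene in 1.14% and a mast cell or basophil gene in 7.52%. The corresponding totals in Gata1+ progenitors were 48.1%, 27.2% and 14.7%. Before thinning, 519 of the 1580 Gata1+ progenitors (32.8%) held at least 2 UMIs of the full mast cell, basophil and eosinophil list. Cells with platelet genes alone held Pf4 at 2231 CPM and those with erythroid genes alone at 339 CPM, so Pf4 was higher in the cells with other platelet genes.

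A platelet gene was seen in 50.7% and 51.3% of the Gata1+ progenitors of the WT mice and in 43.8% and 46.0% of those of the PyMT mice. For erythroid genes the shares were 29.2% and 32.1% against 28.2% and 20.7%. For either set both PyMT mice lay below both WT mice, PyMT 1 by little for the erythroid set. The mast cell list varied from mouse to mouse within each genotype. Its 12 genes in the table summed to 674 and 251 CPM in WT and 1601 and 375 CPM in PyMT mice. Mcpt8, a basophil protease, stood at 96.8 and 10.4 CPM in WT and 333 and 49.0 CPM in PyMT mice, and Prg3 was at 0 in all 4. Levels also differed with the number of Gata1 UMIs, the value that chose the cells, over classes whose median depth was 6063, 6557 and 7685 UMIs. Klf1 stood at 38.2 CPM in the 919 cells with 1 Gata1 UMI, 75.9 CPM in the 382 with 2 and 129 CPM in the 279 with 3 or more, and Car1 at 97.5, 284 and 645 CPM. Mpo, the myeloperoxidase of granulocyte precursors, stood at 960, 630 and 361 CPM over the same classes. Of the platelet genes, 3 showed no such order: Pf4 at 1363, 1550 and 1267 CPM, Itga2b at 408, 531 and 514 CPM and Gp5 at 147, 204 and 198 CPM. Gp1bb rose in order by small steps, at 113, 115 and 123 CPM. Cells without Gata1 and under the Elane limit held Klf1 at 4.96 CPM, Itga2b at 73.7 CPM and Mpo at 1932 CPM. At the other edge of the rule, the 34 cells with 5 to below 10 Elane UMIs per 10000 held Mpo at 5070 CPM, and the 5 cells with 10 to below 15 held it at 6992 CPM.

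Gata1+ progenitors formed a smaller share of HSPC in both PyMT mice than in both WT mice, by a difference that this design cannot call. With every cell at 2000 UMIs, the share was 6.53% and 5.34% in the WT mice, a mean of 5.94% ± 0.840 (SD, n = 2). In the PyMT mice it was 3.87% and 4.05%, a mean of 3.96% ± 0.130 (SD, n = 2). The groups did not overlap, and the difference of -1.98 percentage points gave p = 0.33 in a two-sided exact permutation test, the smallest value that 2 mice against 2 allow. Without thinning, the shares were 15.9% and 12.0% against 9.30% and 7.77%. When at least 2 Gata1 UMIs were required at that depth, the groups overlapped, with 1.32% and 0.815% in WT and 0.668% and 0.962% in PyMT mice (exact permutation p = 0.667). A lower share of these cells and a higher share of other HSPC cannot be told apart in proportions.

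**Figure D2:**
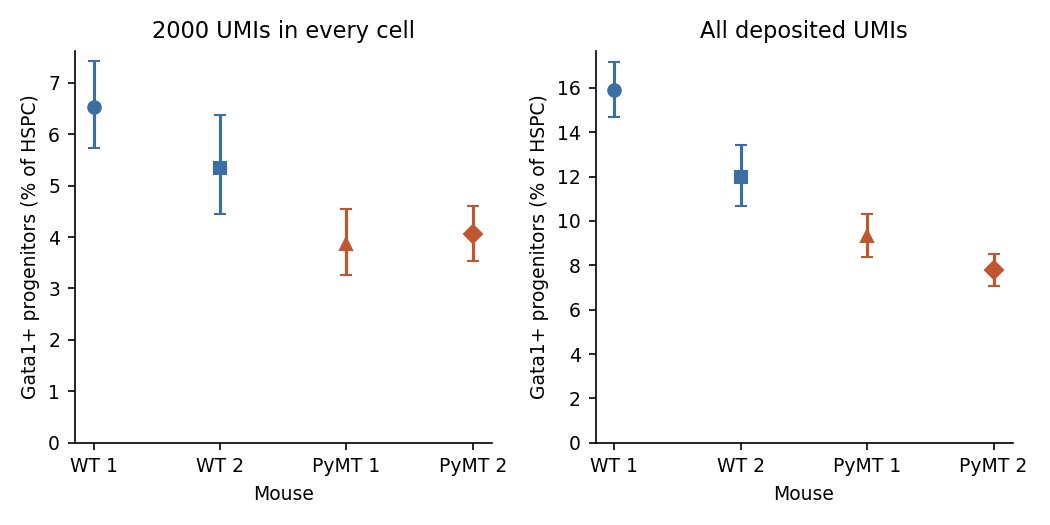
Share of HSPC that met the rule (y axis, percent) in each mouse (x axis), with every cell thinned to 2000 UMIs on the left and with all deposited UMIs on the right. Bars are 95% Clopper-Pearson intervals, which cover counting error only; both PyMT mice lie below both WT mice in both panels.

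UMIs were summed over the Gata1+ progenitors of each mouse and the 2 PyMT sums were compared with the 2 WT sums. Of 9475 genes tested, 45 were higher and 18 lower in PyMT mice at an adjusted p under 0.05 (edgeR quasi-likelihood test, Benjamini-Hochberg adjustment over all genes tested), which is 0.665% of the genes, 0.475% higher and 0.19% lower. The median log2 change over all genes was -0.01. The number of calls depended on the mice: leaving out PyMT 1 gave 446 calls, PyMT 2 202, WT 1 114 and WT 2 62, and DESeq2 gave 16. Fold changes below are PyMT over WT, and CPM values are scaled by the trimmed mean of M-values (TMM). Because cells were pooled, fewer cells of a kind and less RNA per cell cannot be told apart in these sums.

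Pf4, which encodes platelet factor 4, was the platelet gene that fell. Its gene lies at chr5:90772435-90773383 on the plus strand (GENCODE annotation of GRCm38). It stood at 1695 and 1880 CPM in the WT mice and at 873 and 807 CPM in the PyMT mice. Both PyMT mice lay far below both WT mice, which differed little from each other. The log2 change was -1.09 (SE 0.10), a level 2.13-fold lower, with an edgeR adjusted p of 7.62e-10. Fewer Gata1+ progenitors of the PyMT mice showed Pf4 at all. With every cell at 2000 UMIs, a Pf4 UMI was present in 36.6% and 38.9% of the WT cells and in 25.2% and 24.7% of the PyMT cells. Cells with Pf4 held on average 7.51 and 7.80 of its UMIs in WT and 5.79 and 4.88 in PyMT mice, but the median was 2 and 3 in WT and 2 and 2 in PyMT mice. At least 5 UMIs were held by 12.7% and 15.8% of WT against 8.41% and 7.21% of PyMT cells.

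**Figure D3:**
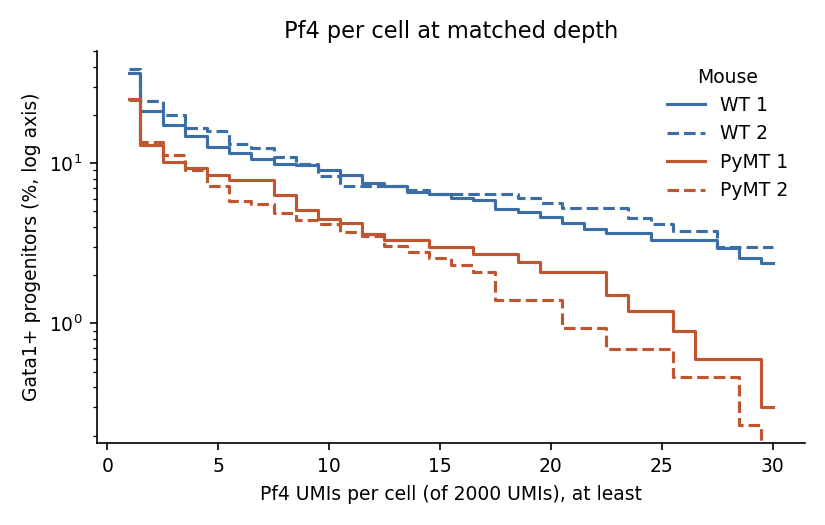
The percentage of Gata1+ progenitors (y axis, log scale) that held at least a given number of Pf4 UMIs (x axis) when every cell was thinned to 2000 UMIs, 1 line per mouse. The PyMT lines start at 25.2% and 24.7% and the WT lines at 36.6% and 38.9%, and the PyMT lines stay below the WT lines over the plotted range.

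Pf4 was also lower among the cells that showed other platelet genes and among those that showed erythroid genes. Among Gata1+ progenitors with a UMI of Gp5, Gp1bb or Gp9, the log2 change was -0.94 (edgeR adjusted p = 7.78e-06), and among those with a UMI of Klf1, Car1, Epor or Aqp1 it was -1.11 (adjusted p = 4.36e-05). It was -1.09 with every cell thinned to 2000 UMIs. Among cells with at least 2 Gata1 UMIs the value was -1.03, but it was not called there (adjusted p = 0.535). Pf4 in cells that should lack it lay lower in PyMT mice as well: Dntt-positive cells outside the rule held it at 26.9 and 47.5 CPM in WT and 7.51 and 9.52 CPM in PyMT mice, of which 5.98%, 4.70%, 1.19% and 2.13% had a UMI at matched depth. These levels are small beside those of the Gata1+ progenitors, and their part in the result was not tested. Granulocyte-monocyte genes lay higher in the Gata1+ progenitors of PyMT mice: the 17 genes of the list other than Elane summed to 3231 and 1859 CPM in WT and 3870 and 3484 CPM in PyMT mice. In the other HSPC they summed to 8688 and 4635 CPM in WT and 11231 and 8975 CPM in PyMT mice. The part of those genes in the Pf4 result was not tested either.

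In the comparison of 2 against 2 mice, no other platelet gene was called lower. Of the 28 genes of the platelet and megakaryocyte list, 24 were tested. Of these, 1 fell (Pf4), 1 rose (Cd63) and 22 were not called, and the median log2 change was -0.26 against -0.01 over all genes. At an unadjusted p under 0.05, 10 were lower and 3 higher, where 5.17% of all genes tested were lower and 6.27% higher (11.4% in all). The calls rested on which mice were used, and a fit without a mouse keeps a lone mouse in the reduced group. Pf4 was called lower in each such fit. Also called lower were Gp9, Cd9, Nrgn, Itga2b and Treml1 without PyMT 1, Cd9 and Gp5 without PyMT 2, and Plek without WT 2. Other platelet genes were called higher in these fits: Cd63 and F2rl2 without PyMT 1, Cd63 without PyMT 2, and another gene of the list without WT 1. In 14 of the 24 both PyMT values lay below both WT values, and in 3 above, where 21.3% and 20.7% of all genes tested did so. Itga2b stood at 519 and 464 CPM in WT and 419 and 381 CPM in PyMT mice, a log2 change of -0.30 (SE 0.10, edgeR adjusted p = 0.169). The PyMT values were lower without overlap, by a step much smaller than that of Pf4.

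Gp5 stood at 184 and 189 CPM in WT and 130 and 171 CPM in PyMT mice, a log2 change of -0.31 (SE 0.12, edgeR adjusted p = 0.242). Gp1bb, its partner in the receptor complex, stood at 122 and 121 CPM against 97.2 and 119 CPM, a log2 change of -0.17 (SE 0.12, adjusted p = 0.645). In both genes PyMT 1 was the lowest mouse and PyMT 2 lay near the WT mice. Gp9, the small subunit of the complex, stood at 142 and 155 CPM in WT and 110 and 109 CPM in PyMT mice (log2 change -0.43, adjusted p = 0.0628). Gp9 was called lower when PyMT 1 was left out, when no low-count filter was used, when the Elane limit was dropped and when cells with mast cell genes were left out. Vwf, which encodes the ligand of the complex, stood at 28.3 and 26.6 CPM against 26.1 and 21.5 CPM. Cd9, a surface tetraspanin, stood at 477 and 485 CPM against 391 and 373 CPM (log2 change -0.33, adjusted p = 0.102), and Rap1b, a small GTPase of platelet activation, at 609 and 642 against 551 and 610 CPM. Cd9 was called lower when the Elane limit was dropped and when cells with mast cell genes were left out.

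Cd63, a tetraspanin of lysosomes and dense granules that many cell types make, rose. It stood at 586 and 546 CPM in WT and 750 and 761 CPM in PyMT mice, without overlap. The log2 change was 0.41 (SE 0.09, edgeR adjusted p = 0.0206). The call was lost when either WT mouse was left out (adjusted p = 0.169 without WT 1 and 0.686 without WT 2), at matched depth (0.0664) and in DESeq2 (0.136), with log2 values of 0.37 to 0.47 in these fits.

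**Figure D4:**
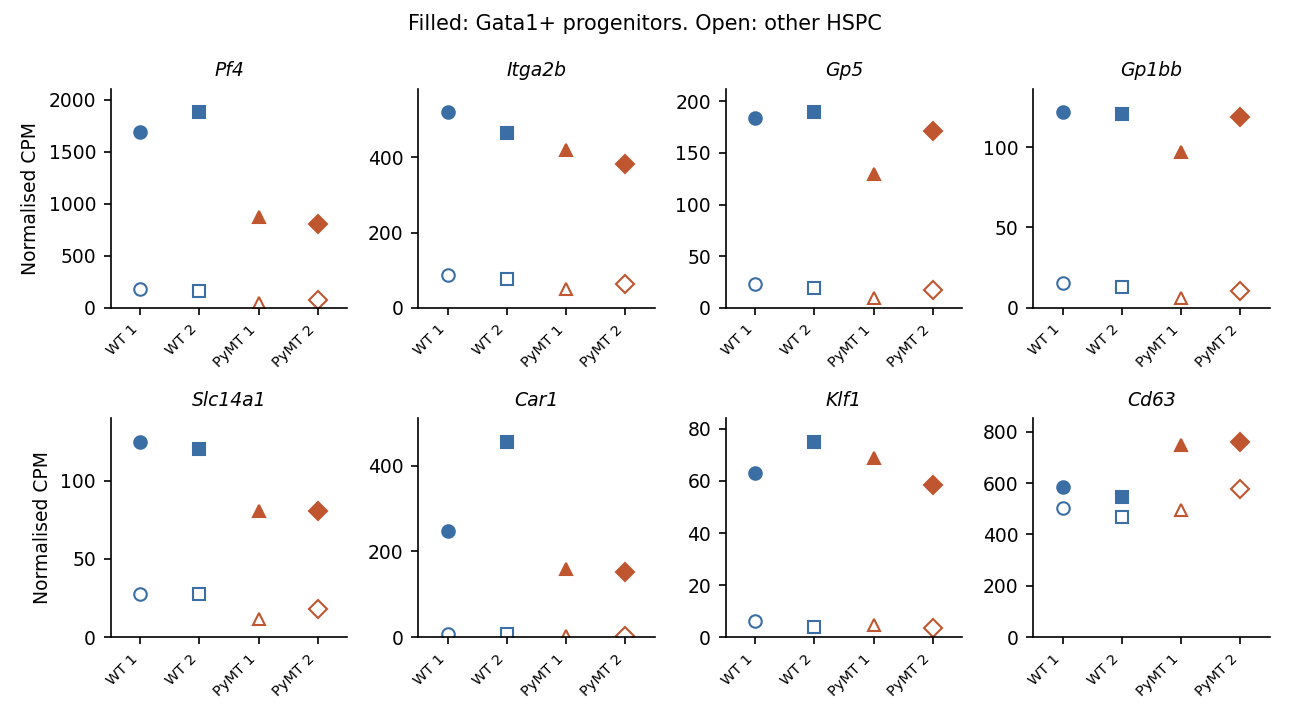
TMM-scaled CPM (y axis, from 0) of 8 genes in each mouse (x axis), filled for Gata1+ progenitors and open for the other HSPC, blue for WT and orange for PyMT. Pf4 in Gata1+ progenitors lies at 1695 and 1880 CPM in WT and 873 and 807 CPM in PyMT mice, while Klf1 overlaps between the groups.

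The windows before the start of Pf4 and Gp5 are shown because both genes mark these cells as platelet-primed and only Pf4 passed the test. Each is the 150 bases before the start that RefSeq gives (GRCm38.p6), written 5′ to 3′ on the gene's strand, and capitals mark a GATA motif, searched on both strands as GATA with A or T before it and A or G after it (read on the opposite strand, TATC with C or T before it and A or T after it). The Pf4 window is chr5:90772285-90772434 on the plus strand and holds none of these letters. The Gp5 window is chr16:30310782-30310931 on the minus strand and holds 3 matches, which begin 115, 93 and 77 bases before the start. Of the 6 markers, Gp5, Gp1bb and Klf1 had a match, with 1 match each in Gp1bb and Klf1, and 16.0% of all 32851 such windows had one. Gp5, Gp1bb and Klf1 were not called, and neither was Itga2b, whose window like that of Pf4 had no match. Any part of the motif in these changes was not tested.
Pf4: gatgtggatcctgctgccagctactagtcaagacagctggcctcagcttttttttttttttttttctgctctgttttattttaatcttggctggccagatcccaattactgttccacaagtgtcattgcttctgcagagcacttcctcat
Gp5: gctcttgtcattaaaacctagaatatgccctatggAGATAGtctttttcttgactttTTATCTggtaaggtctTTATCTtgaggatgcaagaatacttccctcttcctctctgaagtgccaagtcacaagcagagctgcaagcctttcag

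Among erythroid genes, 1 fell: Slc14a1, which encodes the urea transporter of red cells. It stood at 125 and 120 CPM in WT and 80.9 and 80.9 CPM in PyMT mice, without overlap. The log2 change was -0.60 (SE 0.12, edgeR adjusted p = 0.00655). The call was lost without WT 1 (adjusted p = 0.0865), at matched depth (0.198), with at least 2 Gata1 UMIs (0.492) and in DESeq2 (0.287). Of the 28 erythroid genes listed, 16 were tested, none rose, and 15 were not called, with a median log2 change of -0.15; DESeq2 called none. At an unadjusted p under 0.05, 3 of the 16 were lower and 1 higher, against 11.4% of all genes in either direction. Both PyMT values lay below both WT values in 6 of the 16 and above them in 1, where 21.3% and 20.7% of all genes tested did so. With a mouse left out, the erythroid genes called lower were Car1, Ermap and Aqp1 without WT 1, and Car1 and Slc14a1 without WT 2. They were Aqp1, Blvrb and Slc14a1 without PyMT 1, with Mt2 higher, and Slc14a1 without PyMT 2, with Hbb-bt higher. With at least 2 Gata1 UMIs, Car1 was called lower and Mt2 higher.

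Car1 stood at 248 and 456 CPM in WT and 158 and 151 CPM in PyMT mice, a log2 change of -1.17 (SE 0.44, edgeR adjusted p = 0.563). The groups did not overlap, but the WT mice differed from each other by more than WT 1 differed from the PyMT mice. With either WT mouse left out Car1 was called lower, by a log2 value of -1.56 without WT 1 and -0.68 without WT 2. It was also called lower among cells with at least 2 Gata1 UMIs. Few cells carried it: at matched depth a Car1 UMI was seen in 7.35% and 13.2% of Gata1+ progenitors in WT and in 3.60% and 2.33% in PyMT mice, against 0.390% of Dntt-positive cells. Klf1 stood at 63.1 and 75.1 CPM against 68.9 and 58.5 CPM, with overlap and a log2 change of -0.10 (SE 0.15, adjusted p = 0.861). Car2, another carbonic anhydrase, stood at 1725 and 2477 CPM against 1620 and 2095 CPM. Blvrb, a biliverdin reductase, stood at 120 and 148 CPM against 105 and 95.5 CPM (log2 change -0.40, adjusted p = 0.123), and Icam4, a red cell adhesion molecule, at 130 and 139 CPM against 114 and 118 CPM. Aqp1, a water channel, stood at 95.6 and 137 CPM against 77.8 and 51.6 CPM (log2 change -0.82, adjusted p = 0.309). In Blvrb, Icam4 and Aqp1 both PyMT mice lay below both WT mice without a call.

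None of the 11 heme synthesis genes tested was called by edgeR or by DESeq2, their median log2 change was 0.03, and 1 of them (Slc25a38, higher) had an unadjusted edgeR p under 0.05. Alas1, the housekeeping enzyme of the first step, stood at 71.3 and 54.5 CPM in WT and 76.9 and 70.4 CPM in PyMT mice, and Urod, a later enzyme, at 138 and 154 CPM against 127 and 126 CPM. None of the 15 transcription factors besides Gata1 was called by edgeR or by DESeq2 either. Their median was -0.10, and Gata2 and Zfpm1 were lower at an unadjusted edgeR p under 0.05. Gata2 was called lower without PyMT 2. Gata2, which precedes Gata1 in these lineages, stood at 360 and 364 CPM in WT and 284 and 312 CPM in PyMT mice (log2 change -0.28, SE 0.10, adjusted p = 0.210). Nfe2, a factor of platelet release, stood at 246 and 220 CPM against 256 and 260 CPM. Lmo2, a bridging partner of GATA factors, stood at 849 and 940 CPM against 800 and 778 CPM. Gata1, which chose the cells, stood at 238 and 222 CPM in WT and 241 and 301 CPM in PyMT mice. It was highest in the shallowest library, and the part of depth in this was not tested.

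**Figure D5:**
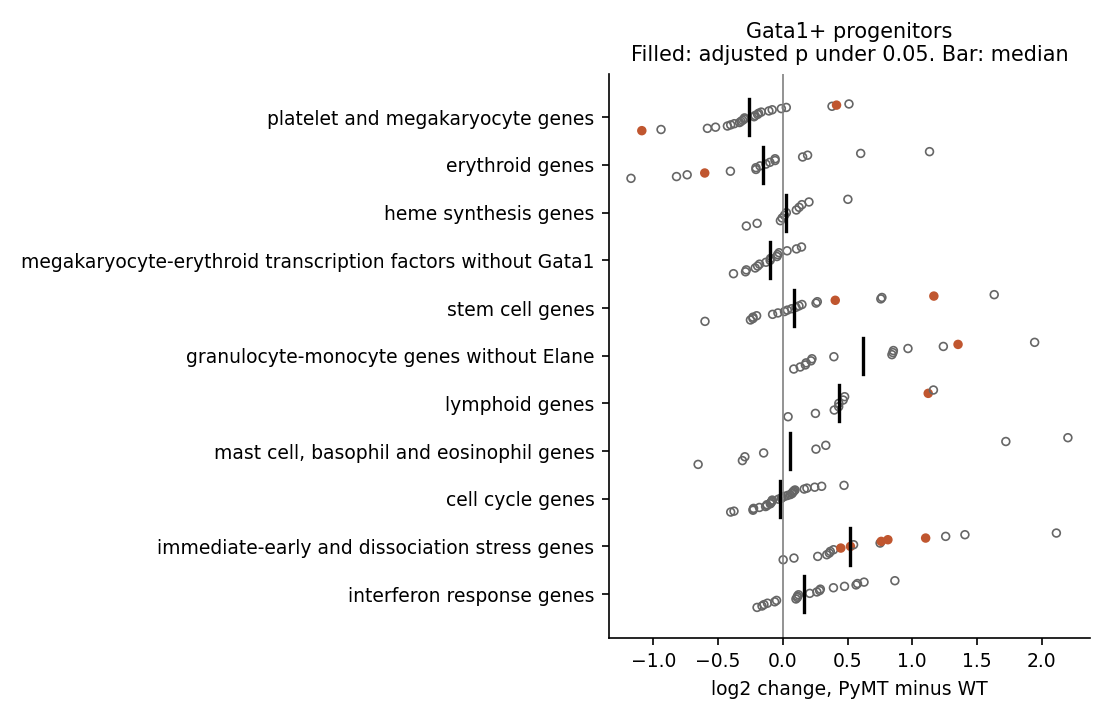
The log2 change between PyMT and WT mice within Gata1+ progenitors (x axis) for each tested gene of 11 lists, without Gata1 and Elane (y axis). Filled points had an edgeR adjusted p under 0.05 and vertical bars are list medians: -0.26 for platelet genes, -0.15 for erythroid genes and 0.62 for granulocyte-monocyte genes.

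Granulocyte-monocyte genes lay higher in the Gata1+ progenitors of PyMT mice, mostly without a call. At an unadjusted edgeR p under 0.05, 3 of the 14 tested besides Elane were higher and none lower, where 6.27% of all genes were higher. Both PyMT values lay above both WT values in 8 of the 14, where 20.7% of all genes did so. All 14 tested besides Elane had a log2 change above 0, with a median of 0.62, which was 1.53 without WT 1 and 0.26 without WT 2; 1 was called, Csf2rb, a receptor subunit for cytokines that include GM-CSF. Csf2rb stood at 15.8 and 13.3 CPM in WT and 37.1 and 38.8 CPM in PyMT mice (log2 change 1.35, SE 0.20, edgeR adjusted p = 5.49e-05), and was not called at matched depth (0.157). Mpo stood at 797 and 278 CPM against 984 and 964 CPM (log2 change 0.84, adjusted p = 0.783), so the WT mice lay further apart than WT 1 from the PyMT mice. Without WT 1, 6 of these genes were called higher (Prtn3, Irf8, Cebpe, Ctsg, Mpo and Csf2rb), and in each other leave-out Csf2rb alone. Elane, which the rule limits, stood at 84.0 and 16.3 CPM against 171 and 101 CPM and is given as a description. The other HSPC moved alike: 17 genes of the list besides Elane had a median log2 change of 0.67 there, none called. The median difference between the cell sets was 0.11, with Irf8 called more positive in Gata1+ progenitors.

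Some immediate-early and stress genes, which also respond to tissue dissociation, rose. Of 17 tested, 5 rose (Junb, Jund, Jun, Egr1 and Dnajb1), none fell, and the median log2 change was 0.52. Of all genes tested, 0.475% rose. At an unadjusted edgeR p under 0.05, 9 of the 17 were higher and none lower, where 6.27% of all genes were higher. Both PyMT values lay above both WT values in 13 of the 17 and below them in none, where 20.7% of all genes lay above. In the other HSPC the median was 0.42 over 20 genes of the list, none called. With a mouse left out, 2 (without WT 1) to 9 (without PyMT 2) rose. Hsp90aa1 was called lower without PyMT 1 and higher without PyMT 2. Junb, a subunit of the AP-1 transcription factor, stood at 132 and 138 CPM in WT and 279 and 300.2 CPM in PyMT mice (log2 change 1.10, SE 0.11, edgeR adjusted p = 4.32e-09). Jund stood at 400.4 and 487 CPM against 793 and 706 CPM, and Jun at 546 and 624 CPM against 778 and 816 CPM. All 3 were separate between the groups. Junb was called under every alternative run, whereas Jun was not called when either WT mouse was left out, at matched depth or in DESeq2. Jund and Egr1 were not called with at least 2 Gata1 UMIs, Egr1 also not without WT 1, at matched depth or in DESeq2, and Dnajb1 not without WT 1, WT 2 or PyMT 1, in DESeq2 or with at least 2 Gata1 UMIs. Of 20 stem cell genes, Ly6a (16.9 and 15.5 against 44.2 and 29.2 CPM) and Ifitm3 (877 and 861 against 1232 and 1068 CPM) rose and none fell. At an unadjusted edgeR p under 0.05, 5 of the 20 were higher and 2 lower. Both PyMT values lay above both WT values in 5 of the 20 and below them in 3. The Ifitm3 call was lost in DESeq2, without WT 1 (adjusted p = 0.313), without WT 2 (0.613) and without the cells that carried mast cell genes, and the Ly6a call in DESeq2 and at matched depth. Of 9 lymphoid genes Wfdc17 rose and none fell, and more of them rose without WT 1 or without PyMT 2. At an unadjusted edgeR p under 0.05, 4 of the 9 were higher and none lower. Both PyMT values lay above both WT values in 5 of the 9 and below them in none. None of 30 cell cycle genes, 20 interferon response genes or 8 mast cell genes was called by edgeR or DESeq2, with 7, 3 and 1 at an unadjusted p under 0.05 (11.4% of all genes). With a mouse left out edgeR made some calls: without PyMT 1, Irf7, Rtp4 and Psmb8 higher and Ube2c, Mki67 and Csrp3 lower, without PyMT 2, Rrm2 and Psmb8 higher and Mki67 lower, and without WT 1, Fcer1a higher. Ube2c and Mki67 were also called lower with no low-count filter, and Ube2c without the Elane limit. In the authors' cell cycle calls, which depend on depth, 27.4% and 30.2% of Gata1+ progenitors in WT and 25.4% and 27.8% in PyMT mice were in G2M, against 16.5% to 18.3% of other HSPC.

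The genes with the smallest p among those that rose were Junb, Socs3, Serpina3g, Wfdc17, Cd200r4, Pim1, Jund, Csf2rb, Cebpb and Rcvrn. Socs3, a feedback inhibitor of cytokine signalling, stood at 6.50 and 6.44 CPM in WT and 43.3 and 30.2 CPM in PyMT mice (log2 change 2.50, SE 0.25, edgeR adjusted p = 1.30e-08). Serpina3g, a protease inhibitor, stood at 220 and 182 CPM against 388 and 465 CPM, and Pim1, a cytokine-induced kinase, at 238 and 188 CPM against 374 and 377 CPM. Cebpb, a transcription factor of emergency granulopoiesis, stood at 48.3 and 35.2 CPM against 96.8 and 76.8 CPM. Each of the 10 genes was at least 1.69-fold higher; they were chosen among genes whose groups did not overlap. Junb, Socs3 and Serpina3g were called under every alternative run, whereas Pim1, Cebpb and Cd200r4 were not called among the cells with erythroid genes, nor Cebpb among those with platelet genes. Wfdc17, Ly6a, Ifitm3, Dnajb1, Cd63, Slc14a1 and Tspo2 were called neither among the cells with platelet genes nor among those with erythroid genes, and Csf2rb, Jun and Egr1 were not called among the latter. Wfdc17 was also not called at matched depth, nor Rcvrn in DESeq2 or with at least 2 Gata1 UMIs. Rcvrn and Cd200r4 rested on 106 and 83 UMIs in all.

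The genes with the smallest p among those that fell were Pf4, Cdk5rap1, Tspo2, Slc14a1, mt-Nd3, Gnb4, BC037034, Clec4d, Trib2 and H3f3a. Tspo2, an erythroid membrane protein that is on none of the lists, stood at 13.2 and 20.6 CPM in WT and 4.86 and 2.74 CPM in PyMT mice (log2 change -2.07, SE 0.37, edgeR adjusted p = 0.00111), and rested on 122 UMIs. It was not called in DESeq2 or without the cells that carried mast cell genes. Cdk5rap1, an enzyme that modifies mitochondrial tRNA, stood at 37.8 and 37.8 CPM against 12.8 and 12.3 CPM, a 3.00-fold lower level. The other HSPC gave 42.6 and 40.2 CPM against 12.5 and 9.11 CPM for Cdk5rap1, so the step was as large outside these cells. Trib2, a pseudokinase, stood at 8.82 and 14.2 CPM against 2.21 and 3.66 CPM on 84 UMIs. Several of these calls depended on the fit. Of 12 alternatives, BC037034 lost its call in 7, Clec4d in 6, Gnb4 in 5, mt-Nd3 and H3f3a in 4 and Cdk5rap1 in 1 (matched depth), and Trib2 lost it in 5 of 11. Among fits without a mouse, BC037034, mt-Nd3 and H3f3a were not called without WT 1, BC037034, Clec4d, Gnb4, Trib2 and H3f3a without WT 2, Clec4d and Trib2 without PyMT 1, and BC037034 without PyMT 2. Among the cells with platelet genes Gnb4, BC037034, Clec4d and H3f3a were not called, and among those with erythroid genes these 4, mt-Nd3 and Trib2 were not.

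The same comparison over all other HSPC asked where Gata1+ progenitors differed from the cells around them. Of 11662 genes tested there, 13 were higher and 7 lower in PyMT mice (0.171% of the genes, 0.111% higher and 0.06% lower), and 10 of these 20 were also among the 63 of the Gata1+ progenitors. Both cell sets of a mouse come from 1 library. Pf4 in the other HSPC stood at 177 and 159 CPM in WT and 43.6 and 71.4 CPM in PyMT mice (log2 change -1.55, edgeR adjusted p = 0.0774). The difference between the changes of the 2 cell sets was 0.53 (SE 0.41, adjusted p = 0.772), so a different change of Pf4 in Gata1+ progenitors was not shown.

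The difference itself passed the test for 158 of 11197 genes (1.41%), with 106 changes more positive in Gata1+ progenitors (0.947%) and 52 more negative (0.464%). Several platelet and transcription factor genes were among the 106, with a more negative change in the other HSPC. Gp1bb changed by -0.17 in Gata1+ progenitors and -0.79 in other HSPC (difference 0.69, SE 0.15, edgeR adjusted p = 0.00485). Gp5 changed by -0.31 and -0.71 (difference 0.48, adjusted p = 0.0350), and Gata2 by -0.28 and -0.63 (difference 0.40, adjusted p = 0.0129). Gfi1b, a repressor needed for platelet and red cell formation, changed by -0.21 and -0.86 (difference 0.69, adjusted p = 0.000290). Neither Gp1bb, Gp5, Gata2 nor Gfi1b was called within either cell set alone. With every cell at 2000 UMIs the difference passed for only 4 genes in all, and Gfi1b was not among them. Gata1+ progenitors held 34.3% to 53.7% of the Itga2b UMIs of a mouse and 49.5% to 65.4% of its Pf4 UMIs, in both cases lowest in PyMT 2, so the other HSPC carried the remainder.

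Of the 26 platelet genes in this test, 4 were called, Cd63, Gp1bb and Gp5 among them, each more positive in Gata1+ progenitors, and the median difference was 0.42 against 0.02 over all genes. Of 21 erythroid genes, Car2 and Hbb-bt were called, both more positive, with a median of 0.35. The pattern was not particular to these lists: of 21 stem cell genes, 5 were called, Meis1 among them, all more positive, with a median of 0.53. The other leading genes were Jun, Meis1, Cited2 and Angpt1 among the more positive, and Hspa5, Ass1, Sdf2l1, Tspo and Cycs among the more negative. Hspa5, the main chaperone of the endoplasmic reticulum, changed by 0.45 in Gata1+ progenitors and by 1.01 in other HSPC (difference -0.51, SE 0.08, edgeR adjusted p = 2.01e-05). These counts were not stable. They came to 4 genes with every cell at 2000 UMIs, 13 without PyMT 1, 19 without WT 2, 352 without PyMT 2, 108 without WT 1, 28 without the Elane limit and 13 in DESeq2.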

How the data were processed

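Single-cell libraries of HSPC from 2 WT and 2 PyMT mice were used, of 14 samples in the series; the bulk and stromal libraries were not analysed here. Per the submitters' processing notes, Cell Ranger 6.0.0 was used with the mouse build mm10; the labels name the chemistry version in differing ways. The deposited table holds raw UMI counts of 11992 genes per cell, per the file headers; all its values are whole numbers. The deposited cell metadata give the mouse, the genotype, the mitochondrial share as a percent, and cell cycle scores and phases set by the authors. No deposited cell exceeded 4.50% mitochondrial UMIs or 19995 UMIs, so a cell filter preceded deposit, with limits that no source used here gives. No doublet caller was run, so doublets remain in all groups.

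The rule was applied to the deposited counts. The cells, lists and tests were chosen with earlier results of these data known. UMIs were summed per mouse and tested with edgeR 4.0.16 in R 4.3.3 (TMM scaling, low-count filter by filterByExpr, quasi-likelihood test in its robust form, threshold 0.05 after Benjamini-Hochberg adjustment over all genes tested), with DESeq2 1.42.0 as an alternative; the difference between cell sets was an interaction with mouse as a term. The fit was tested on simulated data. Shares were compared by exact permutation (3 splits) after thinning each cell to 2000 UMIs (seed 7), which left out cells with fewer. The named genes were the 6 markers, the 2 genes of the rule, list members that passed the test, up to 5 members of each megakaryocyte-erythroid list with the highest CPM, and the 10 genes with the smallest p in each direction whose groups did not overlap (5 for the difference between cell sets); other list members were named after their values were seen. A few list members are counted in their lists but not reported here by name. Alternatives were another normalisation, no low-count filter, each mouse left out, other Gata1 and Elane limits, matched depth and subsets of cells. Subsets of cells with platelet genes and of cells with erythroid genes were chosen after seeing the data. Elane and Gata1, which the rule used, were left out of the counts of their lists, also after seeing the data. Each library came from its own mouse in the metadata.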

Additional observations from a re-analysis of the deposited data

Results flagged for a closer look

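The results below were singled out because the change between PyMT and WT mice differed between Gata1+ progenitors and the other HSPC of the same mice, by a test of that difference (edgeR interaction, adjusted p under 0.05). Values are differences of log2 changes, Gata1+ progenitors minus other HSPC, over 2 WT and 2 PyMT mice. Groups of 2 mice are too small for a search for single outlying mice.

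Among platelet genes the difference was 0.69 for Gp1bb, 0.48 for Gp5 and 0.32 for Cd63. Among erythroid and heme genes it was 0.67 for Car2, 1.15 for Hbb-bt, a beta globin, and -0.50 for Alas1. Among transcription factors it was 0.69 for Gfi1b and 0.40 for Gata2. Car2 changed by -0.18 in Gata1+ progenitors and by -0.78 in the other HSPC, and Alas1 by 0.20 and 0.77.

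Among the genes with the smallest p, the difference was 0.47 for Jun, 0.56 for Meis1, 0.48 for Cited2, a transcriptional coregulator, and 0.63 for Angpt1, which encodes angiopoietin. It was -0.51 for Hspa5, -0.57 for Ass1, argininosuccinate synthase, -0.47 for Sdf2l1, a chaperone partner of the endoplasmic reticulum, -0.40 for Tspo, and -0.36 for Cycs, which encodes cytochrome c. Jun rose by 0.45 in Gata1+ progenitors and changed by 0.03 in the other HSPC. Neither these 9 genes nor Gfi1b were called with every cell at 2000 UMIs, and the cause was not tested. At that depth 4 genes were called in all, 3 of them also called at full depth. Which of the other flagged genes kept their call there was not followed.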

How the results depend on the processing

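No paired analysis was possible because the WT and PyMT libraries share no replicate numbers in the labels. All 5 markers other than Gata1 stayed higher in Gata1+ progenitors in 4 mice under the 5 alternatives of the rule, depth and cell subset. The mean share stayed lower in PyMT mice in all 9 alternatives, with differences of -2.57 to -1.39 percentage points when a mouse was left out. With at least 2 Gata1 UMIs the difference of the means was -0.25 percentage points, and the mice of the 2 groups overlapped. Counts of called genes moved more, and the cause was not tested. Counts are given as higher and lower within Gata1+ progenitors (45 and 18), within other HSPC (13 and 7) and for the difference (106 and 52). With 1 mouse left out, where the lone mouse is taken to vary like the other group, they ranged from 52 to 265 and 10 to 181, from 6 to 301 and 3 to 173, and from 6 to 200 and 3 to 152. DESeq2 gave 14 and 2, 482 and 117, and 5 and 8. Without a low-count filter the lower counts were 43, 11 and 83. At least 2 Gata1 UMIs gave 27 and 10 within and 48 and 15 for the difference. No Elane limit gave 32 lower within, and 23 and 5 for the difference, and an Elane limit of 5 gave 80 lower for the difference. Thinning to 2000 UMIs gave 20 and 3 within and 3 and 1 for the difference. Leaving out the 519 cells with at least 2 UMIs of the mast cell list gave 11 lower. Cells with platelet genes gave 17 and 4, and those with erythroid genes 11 and 2; both were chosen after seeing the data.

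Among the named genes, signs turned for 6 that were not called with all 4 mice. With at least 2 Gata1 UMIs the log2 change was 0.046 for Gp1bb and 0.23 for Klf1. At matched depth it was -0.075 for Alad and -0.46 for Fech. Without mast cell gene carriers it was 0.039 for Klf1 and -0.032 for Fech. Klf1 was 0.059 in cells with platelet genes and 0.38 in those with erythroid genes, which Klf1 itself helped to choose. With a mouse left out, values ranged from -0.24 to 0.0052 for Myb, -0.24 to 0.018 for Klf1, -0.42 to 0.11 for Car2 and -0.12 to 0.17 for Fech. Depth limits which changes can be called: Trib2, Cd200r4, Rcvrn and Tspo2, on 83 to 122 UMIs, were called at 3.70-fold or more.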

Other observations

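The genes below were called within Gata1+ progenitors and were named after their values were seen. Xbp1, a transcription factor of the unfolded protein response, stood at 109 and 80.3 CPM in WT and 147 and 133 CPM in PyMT mice (log2 change 0.55, edgeR adjusted p = 0.0318). Pdia6, a disulfide isomerase, stood at 531 and 465 CPM against 665 and 650 CPM (log2 change 0.40, adjusted p = 0.0338). Fkbp11 stood at 54.5 and 60.1 CPM against 97.6 and 75.4 CPM. Stat5a, a signal transducer of the erythropoietin receptor, fell from 90.3 and 90.1 CPM to 57.0 and 64.9 CPM (log2 change -0.57, adjusted p = 0.0338).

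Nupr1, a stress-induced nuclear protein, stood at 22.7 and 17.6 CPM in WT and 83.1 and 49.8 CPM in PyMT mice (log2 change 1.68, edgeR adjusted p = 0.00413), and its log2 change in the other HSPC was 0.29. Bcl3, a regulator of NF-kB, stood at 9.52 and 5.58 CPM against 21.7 and 21.0 CPM, and Socs1, a feedback inhibitor of cytokine signalling, at 8.59 and 7.30 CPM against 18.6 and 17.4 CPM. Bcl3 and Socs1 were called higher in the other HSPC as well.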
